A study of Mus musculus with 7 samples.

Results

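The ZnT genes (Slc30a family) encode transporters and partner subunits, most of which carry zinc from the cytosol across the plasma membrane or into an organelle. The members described here were the 8 listed genes Slc30a1, Slc30a2, Slc30a4, Slc30a5, Slc30a6, Slc30a7, Slc30a9 and Slc30a10, taken by symbol from 55367 gene symbols in each table. Each of the 8 matched 1 row, and the tables held 10 Slc30a symbols in all. The cells were G1E-ER4, mouse erythroid progenitors without endogenous GATA1, the main transcription factor of this lineage. They instead hold a GATA1 protein that estradiol switches on through a hormone-binding part of the estrogen receptor, and its addition begins maturation. Messenger RNA was sequenced from 1 library of non-differentiating cells at 0 h, 3 libraries after 24 h with 100 nM β-estradiol (control) and 3 libraries after 24 h with 100 nM β-estradiol and 50 µM DTPA from the start. DTPA is a chelator that binds zinc strongly and also binds other metals, among them manganese. The line is a single engineered model, and its maintenance medium held erythropoietin and medium conditioned by cells that make Kit ligand. The labels call the replicates biological without saying how the cultures were separated, so p-values measure the spread between these libraries.

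ZnT proteins work as dimers and exchange zinc for protons, and they are set against the ZIP importers (Slc39a family), which bring zinc into the cytosol. Excess cytosolic zinc is bound by metallothioneins, and the zinc-sensing factor MTF1 activates metallothionein genes and Slc30a1 when zinc is high. Maturing erythroid cells are known for a high demand for metals, since they make heme and the zinc enzyme carbonic anhydrase in bulk. By site, Slc30a1 and Slc30a10 encode transporters of the plasma membrane, Slc30a5, Slc30a6 and Slc30a7 those of the early secretory pathway, Slc30a2 and Slc30a4 those of vesicles and endosomes, and Slc30a9 one of mitochondria.

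Promoter sequence is shown for the members of the plasma membrane and for Slc30a5, because elements tied to zinc in the literature have letters that can be searched there. Each line gives the 250 bases before the gene's annotated start in RefSeq on GRCm38.p6, 5′ to 3′ on the gene's strand. Capitals mark matches to the core of the metal response element bound by MTF1 (TGCACNC or TGCGCNC, both strands), to GATA motifs (the letters AGATAA or else AGATAG, and the variant TGATAA or else TGATAG, both strands) and to the zinc transcriptional regulatory element, searched as CACTCC followed by GGAGTG after 0 to 20 bases.
Slc30a1, chr1:191906531-191906780, plus strand: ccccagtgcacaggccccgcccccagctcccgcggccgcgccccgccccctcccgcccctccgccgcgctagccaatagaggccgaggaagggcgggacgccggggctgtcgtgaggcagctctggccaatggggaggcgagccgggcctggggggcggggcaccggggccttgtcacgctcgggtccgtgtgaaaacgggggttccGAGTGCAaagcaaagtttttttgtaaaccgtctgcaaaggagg
Slc30a10, chr1:185454598-185454847, plus strand: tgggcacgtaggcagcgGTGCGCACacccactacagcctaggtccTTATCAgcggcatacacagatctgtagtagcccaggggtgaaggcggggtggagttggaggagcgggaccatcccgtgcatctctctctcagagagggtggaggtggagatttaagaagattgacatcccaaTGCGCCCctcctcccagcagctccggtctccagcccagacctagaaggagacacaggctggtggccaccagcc
Slc30a5, chr13:100833428-100833677, minus strand: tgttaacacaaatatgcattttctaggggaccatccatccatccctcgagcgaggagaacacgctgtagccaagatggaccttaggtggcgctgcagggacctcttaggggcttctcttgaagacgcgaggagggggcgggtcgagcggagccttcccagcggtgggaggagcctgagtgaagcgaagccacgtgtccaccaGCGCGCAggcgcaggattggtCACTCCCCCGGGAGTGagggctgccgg

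In Slc30a1, 1 match to the metal response element core lay on the minus strand, 37 bases before the start. Slc30a10 held 3 such matches, of which those at 226 and 227 bases before the start overlap on opposite strands and the other lies at 67 bases, and 1 GATA match at 200 bases. Slc30a5 held 1 metal response element match at 42 bases and the inverted pair CACTCCCCCGGGAGTG, whose last base lies 12 bases before the start. All 8 members had such a window. Of these, 5 (Slc30a1, Slc30a2, Slc30a4, Slc30a5 and Slc30a10) held the metal response element core, against 21.4% of all 32851 windows of the same length. The windows of the members were 54.8% to 82.8% G and C. The set of all windows was not matched to them in base composition, and enrichment was not tested. A GATA motif stood in 3 of the 8 (Slc30a6, Slc30a7 and Slc30a10), against 26.5% of all windows. The inverted pair stood in Slc30a5 alone among the 8, and in 17 of the 32851 windows (0.0517%), which belong to 14 gene symbols. A match is a run of letters and not a measured binding site, and the annotated start may not be the one used in these cells. The last bases of the Slc30a1 window run past the start of the gene in GENCODE M21. The whole Slc30a2 window, counted among the 5 with the metal response element core, lies inside the gene in that annotation.

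Before the results, the libraries were checked. The estimated depth of the DTPA libraries, 19.78 to 21.19 M reads, was above that of the others, 17.59 to 18.6 M. The 8 erythroid markers were all expressed, with a summed level of 4381 TPM at 0 h, 8542 to 8740 TPM in the controls and 6075 to 6249 TPM under DTPA. Gata1 reads made up much of that sum, with means of 2969, 3164 and 1305 TPM in that order, and were not separated here by their source. Between control and DTPA 5 of the 8 fell, among them Gata1 and Slc4a1 (770 to 73.0 TPM), Alas2 rose (1937 to 2538 TPM), and Klf1 and Tfrc did not pass. The progenitor markers summed to 597 TPM at 0 h, 39.1 to 42.0 TPM in the controls and 77.4 to 86.3 TPM under DTPA, with Cd34 at 0 throughout. Megakaryocyte markers summed to 15.3 TPM at 0 h, 3.65 to 4.5 TPM in the controls and 18.4 to 22.5 TPM under DTPA, with Ppbp and Vwf at 0. Itgb3 held most of the DTPA sum, with means of 3.3, 2.18 and 15.3 TPM, and Gp9 was also highest under DTPA (1.34, 1.01 and 3.11 TPM). Pf4 (5.87, 0.0767 and 0.927 TPM) and Itga2b (4.75, 0.67 and 0.953 TPM) were highest at 0 h. Myeloid and mast cell markers summed to 14.4, 3.09 to 3.19 and 1.23 to 2.79 TPM in that order, and Mpo, Itgam, Ly6g and Mcpt8 were at 0 in every library. Most of these sums came from Cd68, with means of 7.13, 2.78 and 1.66 TPM, and at 0 h also from Cpa3. Cpa3 had 7.25 TPM at 0 h and was at 0 in the 24 h libraries. These levels, and the depth, moved with the groups, and their part in the changes of the ZnT genes was not tested. In such bulk samples, fewer cells of a type and less RNA per cell cannot be told apart.

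Transcripts of both plasma membrane exporters and of Slc30a7 were highest under DTPA, while those of Slc30a5, Slc30a6 and the mitochondrial Slc30a9 were lower than in the controls. The unit TPM gives transcripts relative to a fixed total and is scaled by gene length, so an order between genes rests on the lengths used. Those lengths are not given in the sources used here. In estimated reads, Slc30a9 was above Slc30a10 at 0 h (1484 against 1465) and in the controls (3248 to 3493 against 2465 to 2758). Under DTPA it was below Slc30a10 (2650 to 2814 against 4378 to 4644). The orders that follow are by TPM. At 0 h the order from the highest was Slc30a10, Slc30a5, Slc30a9, Slc30a1, Slc30a6, Slc30a2, Slc30a7 and Slc30a4, in a single library. In the controls it was Slc30a10, Slc30a9, Slc30a5, Slc30a1, Slc30a6, Slc30a7, Slc30a2 and Slc30a4, where Slc30a5 and Slc30a1 overlapped (Slc30a5 was the higher in 1 of 3 libraries) and all other neighbours were apart. Under DTPA it was Slc30a10, Slc30a1, Slc30a9, Slc30a5, Slc30a6, Slc30a7, Slc30a2 and Slc30a4, where Slc30a6 and Slc30a7 overlapped (Slc30a6 was the higher in 2 of 3 libraries). Slc30a1, below both Slc30a9 and Slc30a5 in the mean of the controls, thus came next after Slc30a10 under DTPA.

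**Figure D1:**
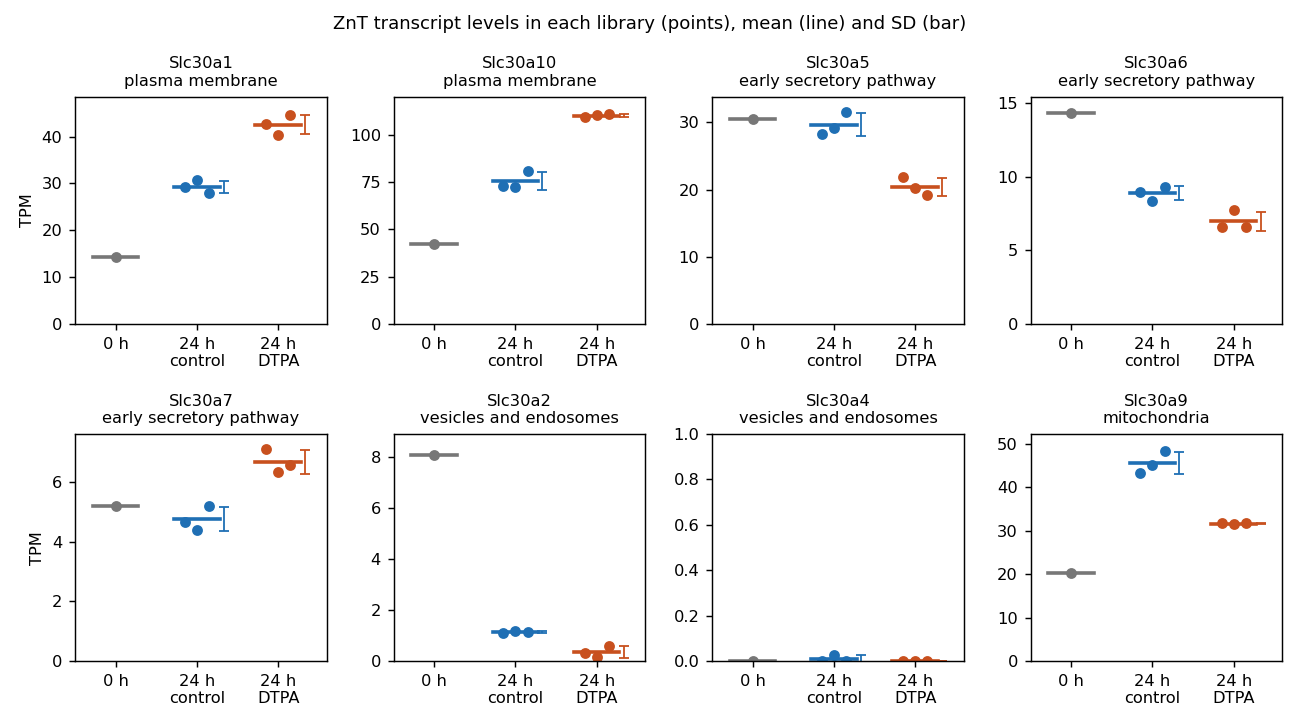
TPM of each of the 8 ZnT genes (vertical axis, from 0, scale set per gene) in the 0 h, 24 h control and 24 h DTPA libraries; points are libraries, lines are means and bars are SD (n = 3; none at 0 h). The DTPA points lie above the control points for Slc30a1, Slc30a10 and Slc30a7 and below them for Slc30a5, Slc30a6, Slc30a2 and Slc30a9, and Slc30a4 stays at or near 0.

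DTPA was compared with control at 24 h with limma on log2(TPM + 1), which asks how these genes differed when the chelator was present during differentiation. Of the 8 members, 6 had means of at least 1 TPM in both groups, and all 6 were called at an adjusted p under 0.05, with 3 higher and 3 lower. Among all 11147 genes tested, 58.1% were called, 21.7% higher and 36.4% lower, so a called gene is the common case in this comparison. In each of the 6 members the control and DTPA libraries were apart, as they were in 65% of all genes. The median log2 fold change was 0.05 over the 6 members and -0.09 over all genes. The share of all calls that were higher was 37.3% on the deposited scale, 48.0% under median-of-ratios scaling and 50.7% under quantile normalization, while the members' directions stayed as given. Slc30a2 reached the filter through the controls alone and is left out of these counts, and Slc30a4 was not tested.

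Slc30a1 encodes the chief exporter of zinc from the cytosol to the outside of the cell. Its level was 14.39 TPM at 0 h, then 29.18, 30.67 and 27.92 TPM in the control libraries and 42.65, 40.43 and 44.67 TPM in the DTPA libraries. The 3 groups were apart, with DTPA the highest. The DTPA mean of 42.6 ± 2.12 TPM (SD, n = 3) was 1.46 times the control mean of 29.3 ± 1.38 TPM, and the fitted log2 change was 0.53 ± 0.058 (SE; adjusted p = 1.62e-04, limma). The gene is protein-coding and spans chromosome 1 from 191906767 to 191913247 on the plus strand of GRCm38 (mm10). The values rest on an estimated 856 to 938 reads in the controls and 1443 to 1683 under DTPA. An antisense gene, 1700034H15Rik, shares 468 bp (8.9%) of its exons and stood at no more than 1.14 TPM in any library.

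Slc30a10 encodes a plasma membrane transporter best known for exporting manganese. Its TPM was the highest among the ZnT genes in all 7 libraries. It had 42.46 TPM at 0 h, 72.85, 72.42 and 80.85 TPM in the controls and 109.1, 110.19 and 110.77 TPM under DTPA. The 3 groups were again apart and in the same order as for Slc30a1. DTPA gave 110.0 ± 0.848 TPM against 75.4 ± 4.75 TPM (SD, n = 3), which is 1.46 times the control, and the fitted log2 change was 0.54 ± 0.051 (SE; adjusted p = 7.21e-05, limma). The ratio of Slc30a10 to Slc30a1 within a library was 2.95 at 0 h, 2.36 to 2.90 in the controls and 2.48 to 2.73 under DTPA, so the control and DTPA ranges overlapped. Slc30a10 spans chromosome 1 from 185454848 to 185468762 on the plus strand. Of its exons, 533 bp (9.1%) are shared with Gm2061 on the opposite strand, which stood at 3.25 TPM at 0 h, 21.24 to 22.64 TPM in the controls and 23.39 to 27.02 TPM under DTPA. The strand setting of the counting is not given in the sources used here. Reads of Gm2061 may have been counted for Slc30a10, or reads in the shared part left out, and this was not tested.

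The genes of the early secretory pathway split. ZnT5 and ZnT6, encoded by Slc30a5 and Slc30a6, form a heterodimer in which ZnT6 is the partner that does not transport zinc itself, and ZnT7 forms homodimers. Both complexes load zinc onto enzymes that pass through the Golgi, such as alkaline phosphatase. Slc30a5 had 30.58 TPM at 0 h, 28.28, 29.15 and 31.61 TPM in the control libraries and 21.83, 20.19 and 19.22 TPM in the DTPA libraries. The 0 h value lay within the control range, and all DTPA libraries lay below both. The fall from 29.7 ± 1.73 to 20.4 ± 1.32 TPM (SD, n = 3) was -0.52 ± 0.068 on the fitted log2 scale (SE; adjusted p = 3.99e-04, limma). The gene spans chromosome 13 from 100802648 to 100833427 on the minus strand.

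Slc30a6 had 14.31 TPM at 0 h, 8.99, 8.36 and 9.29 TPM in the control libraries and 6.58, 7.74 and 6.61 TPM in the DTPA libraries. The groups did not overlap, but DTPA replicate 2 came close to the lowest control. The log2 fold change was -0.31 ± 0.088 (SE; adjusted p = 0.0176, limma), and 141 to 168 estimated reads stood behind each 24 h value. This call ended under median-of-ratios scaling (adjusted p = 0.0571) and quantile normalization (adjusted p = 0.0742), and when control replicate 1 (0.0536) or control replicate 3 (0.0528), DTPA replicate 1 (0.0522) or DTPA replicate 3 (0.0597) was left out. The gene spans chromosome 17 from 74395608 to 74424221 on the plus strand. Slc30a7, the homodimer gene, went the other way, with 5.18 TPM at 0 h, 4.65, 4.4 and 5.2 TPM in the controls and 7.09, 6.31 and 6.57 TPM under DTPA. All DTPA libraries were above the controls, and the 0 h value lay among the controls. Its log2 fold change was 0.41 ± 0.093 (SE; adjusted p = 0.00628, limma), on 285 to 549 estimated reads in a 24 h library. It spans chromosome 3 from 115938973 to 116007406 on the minus strand, where 2 opposite-strand gene models that share exon sequence, Gm43106 and Gm6649, stood at no more than 0.42 TPM.

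The balance of the transcripts of both complexes can be read within a library. The ratio of Slc30a7 to Slc30a5 was 0.169 at 0 h, 0.151 to 0.165 in the controls and 0.313 to 0.342 under DTPA, with group means of 0.160 ± 0.00781 and 0.326 ± 0.0147 (SD, n = 3). Such a ratio does not change when all values of a library are multiplied by the same factor. Quantile normalization does more than that and can change it. The control and DTPA libraries were apart in this ratio, which follows from the opposite changes of both genes given above. For the subunits of the heterodimer, the ratio of Slc30a5 to Slc30a6 was 2.14 at 0 h, 3.15 to 3.49 in the controls and 2.61 to 3.32 under DTPA, so the 24 h ranges overlapped while the single 0 h value lay below both. These ratios were chosen after the values were seen and are given with no test.

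**Figure D2:**
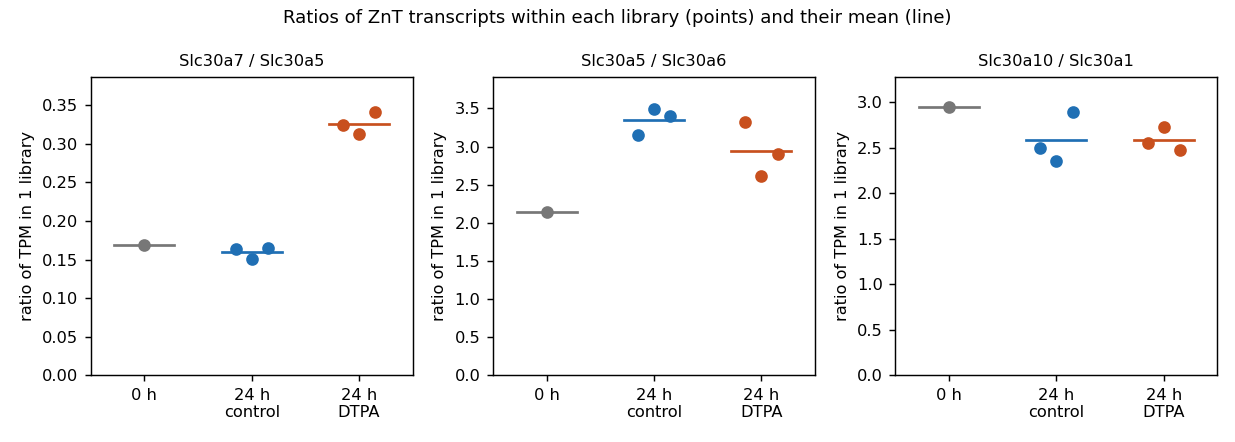
Ratio of the TPM of 2 ZnT genes within each library (vertical axes, from 0) at 0 h and in the 24 h control and DTPA libraries; points are libraries and lines are group means. Slc30a7 over Slc30a5 lies at 0.151 to 0.165 in the controls and at 0.313 to 0.342 under DTPA, while Slc30a5 over Slc30a6 and Slc30a10 over Slc30a1 overlap between the 24 h groups.

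Slc30a9 encodes a mitochondrial transporter that carries zinc out of the mitochondrial matrix. Its level was 20.28 TPM at 0 h, then 43.18, 45.03 and 48.3 TPM in the control libraries and 31.71, 31.45 and 31.66 TPM in the DTPA libraries. The DTPA libraries were close to each other and lay between the 0 h value and the controls. The log2 fold change between DTPA and control was -0.51 ± 0.053 (SE; adjusted p = 1.16e-04, limma), from 45.5 ± 2.59 to 31.6 ± 0.138 TPM (SD, n = 3). The ratio of Slc30a9 to Slc30a5 was 1.53 to 1.54 in the controls and 1.45 to 1.65 under DTPA, against 0.663 at 0 h, so the 24 h groups overlapped. The ratio of Slc30a1 to Slc30a9 was 0.578 to 0.681 in the controls and 1.29 to 1.41 under DTPA, with no overlap, against 0.710 at 0 h. That separation follows from the opposite changes of both genes, and the ratios with Slc30a9 are given with no test. Slc30a9 spans chromosome 5 from 67306955 to 67358443 on the plus strand, and its values rest on 1484 to 3493 estimated reads.

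The vesicle genes were low. Slc30a2, known for loading zinc into secretory vesicles of the mammary gland and other glands, had 8.07 TPM at 0 h, 1.11, 1.2 and 1.15 TPM in the control libraries and 0.32, 0.16 and 0.62 TPM in the DTPA libraries. The 3 groups were apart. The estimated reads were 170 at 0 h, 24 to 25 in the controls and 4, 8 and 16 under DTPA, so counting error is large in the last group. The fitted log2 difference between DTPA and control was -0.67 ± 0.20 (SE; adjusted p = 0.0214, limma). Because the gene entered that fit through the controls alone, the p does not stand as support for a fall. It was 0.05 or more when DTPA replicate 1 (adjusted p = 0.0558) or DTPA replicate 2 (0.0773) was left out, and the gene missed the filter when any control library was. The fitted difference ran from -0.20 with a pseudocount of 5 TPM to -1.55 with 0.1 TPM. The gene spans chromosome 4 from 134343181 to 134354484 on the plus strand. Slc30a4, an endosomal transporter known for zinc supply to milk, was listed at 0 in 6 of 7 libraries and at 0.03 TPM, an estimated 1 read, in control replicate 2. A count of 0 there allows up to 0.0938 TPM (3 reads, counting error only).

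**Figure D3:**
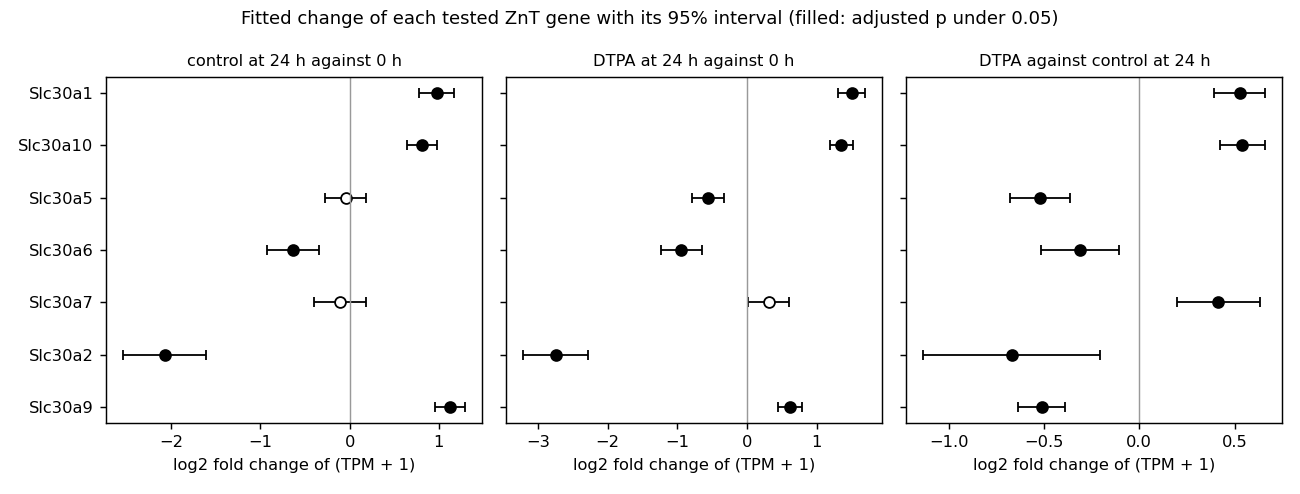
Fitted log2 fold change of TPM + 1 (horizontal axes, scale set per panel) for the 7 tested ZnT genes in each comparison, with 95% intervals; filled points have an adjusted p under 0.05 (limma). Slc30a1 and Slc30a10 lie to the right of 0 in all 3 panels, Slc30a2 and Slc30a6 to the left, and Slc30a9 lies to the right against 0 h but to the left between DTPA and control.

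Control at 24 h was then compared with 0 h, which shows how these genes differed after 24 h of differentiation without the chelator. No library was kept for 24 h without estradiol, so estradiol and time in culture cannot be told apart. With 1 library at 0 h, its spread was taken to be that of the 24 h groups, and a gene was called when it also changed at least 2-fold. Of the 7 tested members, Slc30a9 rose and Slc30a2 fell, while 39.4% of all 11906 genes were called, 15.1% higher and 24.3% lower. The log2 fold change of Slc30a9 was 1.13 ± 0.068 (SE; adjusted p = 2.5e-05, limma) and that of Slc30a2 was -2.07 ± 0.19 (adjusted p = 1.43e-04). Slc30a1, Slc30a10 and Slc30a6 passed the adjusted p without the 2-fold change, with log2 fold changes of 0.97 (adjusted p = 8.11e-05), 0.81 (adjusted p = 1.01e-04) and -0.63 (adjusted p = 0.00344). Slc30a1 was 2.03 times its 0 h level on the TPM scale, and it passed the fold minimum with a pseudocount of 0.1 TPM (1.02), under 3 other scalings (1.03 to 1.26) and without control replicate 3 (1.01). Slc30a9 missed it narrowly with a pseudocount of 5 TPM (0.997). By the adjusted p alone, 5 of the 7 members passed, 3 higher and 2 lower, against 74.4% of all genes, 30.9% higher and 43.6% lower. Among them, Slc30a6 did not pass under quantile normalization (-0.31, limma adjusted p = 0.0586). The higher share of calls at 2-fold was 38.3% on the deposited scale and 48.6% under quantile normalization.

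Slc30a5 and Slc30a7 did not pass. The interval of the log2 fold change ran from -0.27 to 0.19 for Slc30a5 and from -0.40 to 0.18 for Slc30a7 (95%, limma adjusted p = 0.693 and 0.441), and the fitted value changed sign with the scaling for both. Median-of-ratios scaling gave 0.11 and 0.027, and the median of all genes moved from -0.22 on the deposited scale to -0.061.

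Cells differentiated under DTPA were also set against 0 h, a comparison that shares the 0 h library with the one before. Slc30a1 rose by 1.50 ± 0.078 on the fitted log2 scale (SE; adjusted p = 1.11e-05, limma), and so did Slc30a10, with 1.35 ± 0.068 (adjusted p = 9.85e-06). Slc30a2, which reached the filter through the 0 h library alone, had -2.74 ± 0.19 (adjusted p = 3.65e-05). Among all 12016 genes tested, 43.3% were called, 15.7% higher and 27.6% lower. The higher share of these calls was 36.3%, against 47.2% under median-of-ratios scaling and 49.0% under quantile normalization. Slc30a9, the member called higher in the controls, had 0.62 here, under the 2-fold minimum (adjusted p = 3.04e-04). Slc30a6 had -0.94 (adjusted p = 5.34e-04), and it passed the minimum with a pseudocount of 0.1 TPM (-1.03) or without DTPA replicate 2 (-1.01). Slc30a5 had -0.56 (adjusted p = 0.00199), and Slc30a7 did not pass (0.31, 95% interval 0.016 to 0.60, adjusted p = 0.0541). The adjusted p of both depended on the processing. Slc30a7 came under 0.05 when libraries were scaled by median of ratios (0.53), by quantiles (0.73) or without globin genes (0.39). It also did so without the variance trend (0.31) or with a pseudocount of 5 TPM (0.19), but not in the other alternatives. Slc30a5 came to 0.05 or more by quantiles alone (-0.23). In the fit as reported, 5 of the 6 members other than Slc30a2 passed by the adjusted p alone, 3 higher and 2 lower, against 76.5% of all genes, 29.9% higher and 46.6% lower.

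Set side by side, the members differed in course over the 3 groups. Slc30a1 and Slc30a10 were lowest at 0 h and highest under DTPA. Slc30a2 and Slc30a6 were highest at 0 h and lowest under DTPA. Slc30a9 was highest in the controls. Slc30a5 and Slc30a7 had the 0 h value within the range of the controls, and under DTPA they went opposite ways, Slc30a5 to a lower and Slc30a7 to a higher level. Slc30a4 stayed at or near 0.

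The sum of all 8 genes was 135 TPM at 0 h, 188 to 204 TPM in the controls and 216 to 220 TPM under DTPA. The share of that sum held by the plasma membrane genes was 42.0% at 0 h, 53.8% ± 0.495 in the controls and 69.8% ± 0.731 under DTPA (SD, n = 3). The early secretory pathway genes held 37.0%, 22.2% ± 0.326 and 15.6% ± 0.764 in the same order. Slc30a9 held 15.0%, 23.4% ± 0.380 and 14.5% ± 0.0728, and the vesicle genes 5.97%, 0.599% ± 0.0409 and 0.167% ± 0.105. Slc30a10 alone made up 49.8% to 50.9% of the sum under DTPA, against 37.9% to 39.6% in the controls. Within each of these shares the control and DTPA libraries did not overlap. The shares are parts of the same sum and restate the changes of the genes above, so they are no separate support. The vesicle share is almost wholly Slc30a2, whose 24 h values rest on few reads. All are shares of TPM, which rest on the gene lengths used, and say nothing of protein or of its place in these cells.

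**Figure D4:**
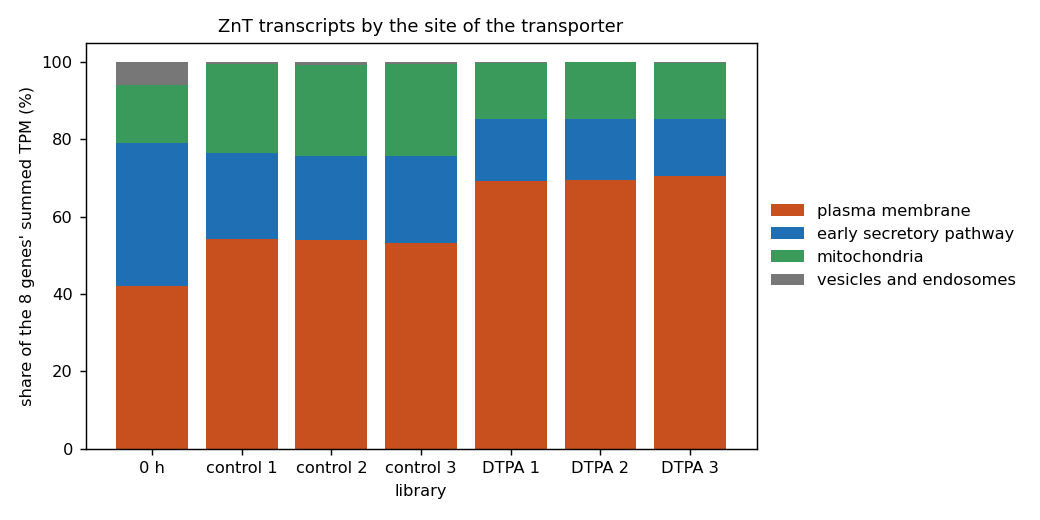
Share of the summed TPM of the 8 ZnT genes (vertical axis, %) by the site of the encoded transporter, 1 bar for each of the 7 libraries. The plasma membrane genes go from 42.0% at 0 h through 53.2% to 54.2% in the controls to 69.2% to 70.6% under DTPA.

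Other genes that handle zinc were read from a list of the ZIP importers, the metallothioneins, Mtf1 and Tmem163. Of its 20 genes 12 were tested, of which 2 rose, 5 fell and 5 did not pass under DTPA, against 58.1% of all genes called, and the median of the 12 was -0.01 on the log2 scale. The 4 with the largest change were the metallothionein genes Mt2 (-7.66) and Mt1 (-3.65), and the importer genes Slc39a10 (2.94) and Slc39a3 (-0.72). Between 0 h and control, 3 of the 12 were called higher and 3 lower, against 39.4% of all genes called, and between 0 h and DTPA, 2 higher and 6 lower, against 43.3%. A second list held 9 genes known as targets of MTF1, with Slc30a1 among them, and 6 were tested. The list was not split by the direction in which MTF1 acts on each gene. Under DTPA 3 rose (Slc39a10, Slc30a1 and Slc40a1) and 3 fell (Mt2, Mt1 and Gclc), against 58.1% of all genes called, with a median of -0.45. Gclc, which encodes the catalytic subunit of glutamate-cysteine ligase, had a log2 fold change of -1.11. Slc30a1 thus moved in the direction opposite to the metallothioneins, which MTF1 is also known to activate. Mtf1 itself went from 27.8 ± 1.02 to 19.3 ± 1.33 TPM (SD, n = 3), a log2 fold change of -0.50 (limma adjusted p = 3.63e-04).

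Enzymes that depend on zinc in the secretory pathway, or on its control there, were read beside Slc30a5, Slc30a6 and Slc30a7. Of 6 genes 5 were tested, with Alpl, a tissue alkaline phosphatase, listed at 0 in all libraries. Under DTPA 3 fell, all encoding transferases that add ethanolamine phosphate to GPI anchors: Pigo (log2 fold change -1.19, limma adjusted p = 3.27e-06), Pign (-0.77, adjusted p = 8.67e-05) and Pigg (-0.52, adjusted p = 0.00118). Erp44, a zinc-regulated chaperone of the early secretory pathway, rose by 0.20 (adjusted p = 0.0205), and Smpd1, an acid sphingomyelinase, did not pass (-0.11, adjusted p = 0.0717). The median of the 5 was -0.52, and among all genes tested 58.1% were called, 21.7% higher and 36.4% lower. Against 0 h, the controls had log2 fold changes of -0.003 for Pigo, 0.022 for Pign and -0.063 for Pigg, none past the threshold.

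Genes of manganese handling were read beside Slc30a10. Of 7 genes 6 were tested, and under DTPA 2 rose, 2 fell and 2 did not pass, against 58.1% of all genes called, with a median of 0.03. The 4 largest changes were those of Tmem165, a Golgi transporter (-0.43, limma adjusted p = 1.85e-04), Atp2c1, the Golgi calcium and manganese pump (0.32, adjusted p = 0.0109), Slc39a8, a ZIP importer of zinc and manganese (-0.25, adjusted p = 0.00217), and Slc40a1, the iron exporter ferroportin (0.22, adjusted p = 0.0155). Sod2, the mitochondrial manganese superoxide dismutase, had -0.02 (adjusted p = 0.863). The log2 fold changes of the 6 genes thus ran from -0.43 to 0.32.

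The inverted pair printed above for Slc30a5 stood in 14 gene symbols, of which 11 matched the tables and 6 were tested between DTPA and control. Of the 6, 5 were called, against 58.1% of all genes, with 3 lower (Slc30a5, Cdr2 with -0.71 and Mcmbp with -0.76) and 2 higher (Tcirg1 with 1.21 and Zfp939 with 0.21), and Pts did not pass (0.09, limma adjusted p = 0.592). The genes with this run of letters thus moved in both directions.

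For each member with a mean of at least 5 TPM, the 2 named genes closest in course were found among 8072 genes. The measure was the root mean square distance of log2(TPM + 1), centred on each gene's mean, over the 7 libraries, which fall into only 3 groups. Closest to Slc30a1 were Spindoc, at a distance of 0.021, with means of 17.1 TPM at 0 h, 34.7 TPM in the controls and 50.5 TPM under DTPA, and Tsc22d1, at 0.042. Closest to Slc30a10 were Dusp11 (0.047) and Pdk2 (0.052), and closest to Slc30a9 were Rbms2 (0.031) and Psmc2 (0.038). Pigg was the closest gene to Slc30a5, at 0.032, with means of 16.5, 15.8 and 10.7 TPM in the same order, and Sc5d followed at 0.033. Slc30a6 was closest to Dhrs4 (0.047) and Med1 (0.054), and Slc30a7 to Chchd3 (0.057) and Foxn3 (0.059). Every one of these distances is under 0.1 on the log2 scale. They were picked as the smallest among 8072 genes, so small values come with the choice. The distance of an arbitrary gene is not given.

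The calls between DTPA and control were recomputed under 16 alternatives of scaling, filter, pseudocount, model and left-out libraries. Slc30a1, Slc30a10, Slc30a5, Slc30a7 and Slc30a9 kept their direction and stayed past the threshold in all 16, with log2 fold changes of 0.47 to 0.67, 0.51 to 0.70, -0.57 to -0.38, 0.26 to 0.50 and -0.55 to -0.37. Slc30a6 kept its direction in all 16 and its call in 10.

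**Figure D5:**
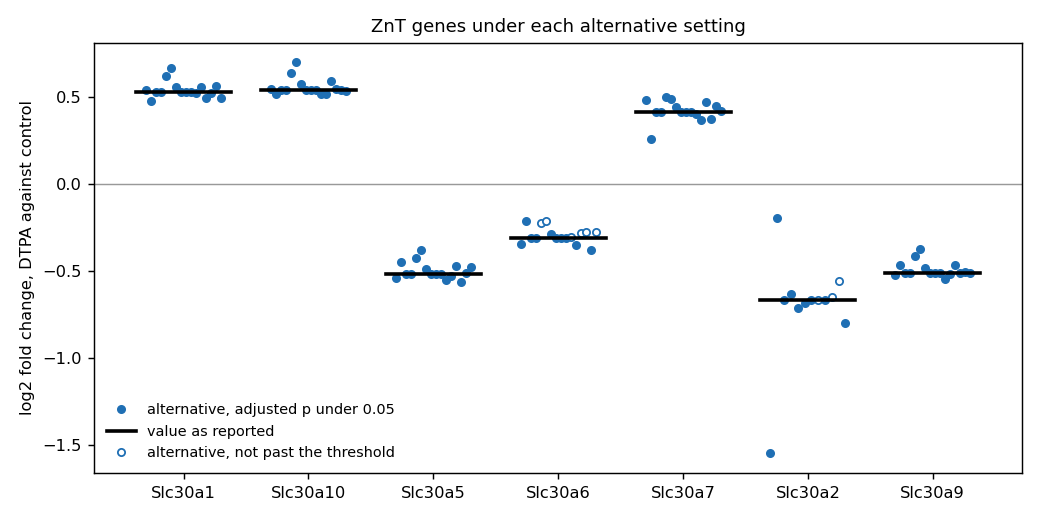
Log2 fold change between DTPA and control (vertical axis) of each tested ZnT gene as reported (line) and under each alternative that could test it (points; open where the adjusted p was 0.05 or more). The points of Slc30a1, Slc30a10, Slc30a5, Slc30a7 and Slc30a9 are all filled, and those of Slc30a2 run from -1.55 to -0.20.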

How the data were processed

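The tables hold TPM as the authors deposited them, 1 value per gene symbol and library. The submitters' processing notes name Trimmomatic 0.33, FastQC, HISAT2 2.1.0, featureCounts, edgeR and the build mm10; the annotation release, gene lengths and strand setting are not given in the sources used here. Rows sharing a symbol (114 symbols) were summed. The value of 1 read was estimated from low values of short genes with GENCODE M21 exon lengths, and 98.8% to 99.2% of those values lay within 0.1 of a whole read. Tests used limma 3.58.1 (R 4.3.3) with a variance trend on log2(TPM + 1), which understates changes of low genes, two-sided, with Benjamini-Hochberg adjustment over all tested genes. DTPA against control used the 6 libraries of 24 h and genes with 1 TPM in 3 of them. Comparisons with 0 h used all 7 libraries and genes with a mean of 1 TPM in either group. An exact permutation test of 3 against 3 libraries cannot give a p under 0.1 and was not used. Named genes were the 8 members, the other Slc30a genes, up to 4 genes of each list with the largest change under DTPA, and the 2 closest in course; Alpl, Smpd1, Sod2, Mtf1, overlapping genes and those with the inverted pair are named beyond that rule or after their values were seen. Members and lists were chosen with earlier results of these data known. Promoters are from RefSeq on GRCm38.p6. A further marker list is not reported here.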

Additional observations from a re-analysis of the deposited data

How the results depend on the processing

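Between DTPA and control, 3 ZnT genes were higher under every alternative, and 4 (Slc30a2 counted) were lower in the fit, 2 to 3 when 1 library was left out. The 2 genes lower without control replicate 1, control replicate 3 or DTPA replicate 1 were Slc30a5 and Slc30a9. Between 0 h and control, 1 member was higher as reported, 2 with a pseudocount of 0.1 TPM, under median-of-ratios scaling, quantile normalization or rescaling without globin genes, 0 with a pseudocount of 5 TPM, and 1 to 2 when a control library was left out (2 without replicate 3). Slc30a5 changed sign there, to 0.11 by median of ratios, 0.14 by quantiles and 0.015 without globin genes, and Slc30a7 to 0.027 and 0.24 under the first and second; neither passed. Between 0 h and DTPA, 1 member was lower as reported. This was Slc30a2, which reached the filter through the 0 h library alone, so its call does not stand as support for a fall. With Slc30a2 counted, 2 were lower with a pseudocount of 0.1 TPM, and 1 to 2 when a DTPA library was left out (2 without replicate 2). The other was Slc30a6. Same-numbered libraries deviated with correlations of -0.011, 0.029 and -0.005, against -0.036 to 0.041 for differently numbered ones, so no pairing by number was seen. The labels do not say whether same-numbered libraries shared a culture, and these correlations cannot settle it. A fit with the replicate number as a block gave 3 higher and 3 lower members, with Slc30a2 at an adjusted p of 0.0512 (limma), and 2274 genes higher and 3888 lower. Where no construction of an alternative shows it, the cause was not tested. With 4 to 25 estimated reads in a 24 h library, depth limits Slc30a2, and Slc30a4 was not detectable beyond 1 read.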

Other observations

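The remaining members of the family were also read. Slc30a3, the transporter of synaptic vesicles in neurons, and Slc30a8, that of insulin granules in beta cells, were listed at 0 in all 7 libraries. A count of 0 allows up to 0.181 TPM for Slc30a3 and 0.261 TPM for Slc30a8 (3 reads, counting error only).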
